A study of Homo sapiens with 6 samples.

Results

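The genes of chromosome duplication were examined in SW620 cells, a human colorectal cancer line derived from a lymph node metastasis, after stable knockdown of ECM1, a secreted extracellular matrix glycoprotein. The set held 42 genes out of 20476 in the count table. They were chosen by name, for roles in replication licensing, helicase activation, the fork, nucleotide supply and entry into S phase, together with UNG, the uracil-DNA glycosylase. All 42 were in the table and all 42 were among the 12576 genes with enough counts to be tested. UNG was put forward with earlier results of these data known, so its difference is no independent evidence.

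Messenger RNA was counted in 3 libraries of cells with stable expression of a hairpin that targets ECM1 (shECM1) and in 3 libraries of cells with a negative control hairpin (shNC). The study asked how ECM1 bears on expression of the chemokine gene CCL20. The hairpin sequences, the number of hairpins and clones, and the time after knockdown have no entry in the sources used here. Nothing in the labels places the replicates in separate cultures, so every p-value measures only the spread between these libraries, which may be technical. The labels describe both extraction of total RNA and droplet single-cell libraries, whereas the table holds 1 count per gene and library, and each column was analysed as 1 library. The column letters were matched to shECM1 and shNC by name, and had they stood for the opposite groups every direction below would be reversed.

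Total counts ran between 9881720 and 16813951 per library. ECM1 was present at 14.8, 13.6 and 8.41 CPM, the normalised read count scaled to library size, in shECM1 libraries, against 38.8, 19.0 and 52.3 CPM in shNC libraries, so shNC replicate 2 lay closest to the knockdown libraries. On the first principal component of all genes tested, which held 58.1% of the variance, the shECM1 libraries stood at 16.6, 17.9 and 23.3 and the shNC libraries at -25.2, 8.64 and -41.3. The control library numbered 2 therefore stood beside the shECM1 libraries, and for UNG, RRM2 and some other genes results are also given without it. All 6 epithelial markers passed the count filter, with EPCAM at 538, 534 and 484 CPM in shECM1 libraries and 455, 459 and 501 CPM in shNC libraries, and CDH1 had a log2 fold change of -0.43. PDGFRA, PTPRC, CD3E and KDR, which mark fibroblasts, leukocytes, T cells and endothelium, had 0 counts in every library. The summed fibroblast markers ran between 9.27 and 11.2 CPM in shECM1 libraries and between 10.6 and 14.0 CPM in shNC libraries, with LUM at a log2 fold change of -0.23. The summed immune markers ran between 5.17 and 6.64 CPM in shECM1 libraries and between 5.6 and 15.9 CPM in shNC libraries, with LYZ at a log2 fold change of -0.96. The summed endothelial markers ran between 13.3 and 14.9 CPM in shECM1 libraries and between 17.03 and 20.2 CPM in shNC libraries, with ENG at a log2 fold change of -0.43, and the part of these markers in the results was not tested.

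Replication origins are licensed in G1 phase, when the origin recognition complex, CDC6 and CDT1 load the ring-shaped MCM2 to MCM7 helicase onto DNA. In S phase CDC45 and the GINS complex join the ring, DNA polymerases epsilon, delta and alpha-primase copy the strands, and PCNA clamps the polymerases to the template. Many of these genes are transcribed at the G1/S boundary by E2F factors, and UNG removes uracil that is misincorporated during copying or left by cytosine deamination. Because RNA was measured from whole populations, fewer cells in S phase and less RNA per cell cannot be told apart.

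Promoter sequence was read from RefSeq windows on GRCh38.p14, running over the 250 bases before and the 50 bases after a start, which were at hand for 35 of the 42 genes. No window was used for MCM4, MCM5, GINS4, POLD3, RPA2, RPA3 or CCNE2. The 8-base E2F-type motifs TTTCCCGC, TTTCGCGC, TTTGCCGC and TTTGGCGC and the pentamer CCAAT were searched on both strands. The stretches below belong to 4 of the 6 genes with the smallest p-values, and capitals mark the motif matches on the gene's strand, where an E2F-type match in the other orientation reads GCGCGAAA or GCGGGAAA and a CCAAT match reads ATTGG. The UNG stretch is chr12:109097972-109098117 (plus strand) and covers bases -200 to -55 before the more downstream of its annotated starts. The MCM6 stretch is chr2:135876444-135876643 (minus strand) and covers the 200 bases before the start. The CDT1 site of 30 bases is chr16:88803742-88803771 (plus strand), which lies inside the 5′ UTR of another GENCODE transcript of CDT1. The RRM2 site of 30 bases is chr2:10122634-10122663 (plus strand), which lies inside the coding exon of a longer GENCODE transcript of RRM2.
UNG: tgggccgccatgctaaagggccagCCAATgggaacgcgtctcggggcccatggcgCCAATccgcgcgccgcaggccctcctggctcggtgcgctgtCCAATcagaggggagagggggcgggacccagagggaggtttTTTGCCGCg
MCM6: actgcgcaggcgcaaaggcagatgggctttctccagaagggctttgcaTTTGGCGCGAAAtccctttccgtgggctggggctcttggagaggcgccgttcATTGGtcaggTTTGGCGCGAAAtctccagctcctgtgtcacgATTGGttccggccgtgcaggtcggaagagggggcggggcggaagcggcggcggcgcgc
CDT1: gccagggcgcccGCGGGAAAtttggcggga
RRM2: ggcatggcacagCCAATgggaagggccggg

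The UNG stretch held CCAAT at -176, -145 and -104 and the E2F-type TTTGCCGC between -63 and -56. The window at the other UNG start held a CCAAT between -2 and 3 and no E2F-type match. MCM6 held E2F-type letters on both strands, overlapping each other, between -152 and -141 and again between -90 and -79. CDT1 held GCGGGAAA between -35 and -28. The RRM2 window held CCAAT at -123, -93 and -66, of which the middle match is shown, and none of the E2F-type letters. Across the set, 19 of 35 genes with a window (54.3%) had an E2F-type match, which is 19 of their 45 windows (42.2%), against 3.315% of all 35116 windows. CCAAT stood in 22 of 35 genes (62.9%), or 28 of 45 windows (62.2%), against 34.6% of all windows. A match describes letters and was not tested as a binding site.

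The replication genes showed no common shift. The median fitted log2 fold change (shECM1 minus shNC) was 0.02 over the 42 genes and 0.01 over all genes tested, with 24 genes on the positive side and 18 on the negative side. The median absolute log2 fold change was 0.18 over the set and 0.20 over all genes tested. For 30 of the 42 genes the log2 fold change was smaller than 0.25 in size, and for 19 of 42 it was smaller than its own standard error. In 12 of the 42 genes the sign changed when at least 1 of the 6 libraries was left out. At the ends of the range stood UNG, at 0.77, and RRM2, the regulated subunit of ribonucleotide reductase, at -0.84. In the quasi-likelihood test of edgeR, with adjustment by Benjamini-Hochberg over all genes, 0 of the 42 genes and 0 of 12576 genes (0%) passed an adjusted p of 0.05, while 2827 genes had an unadjusted p under 0.05. At that unadjusted level 4 of 42 genes (9.52%) were higher in shECM1 libraries, namely UNG, MCM6, MCM4 and PRIM1, against 8.31% of all genes. RRM2 and CDT1 were the 2 of 42 (4.76%) that were lower, against 14.2% of all genes. By limma-voom 0 of the 42 genes and 0 of all genes passed the adjusted threshold, with 6 of the 42 (14.3%) at an unadjusted p under 0.05, against 22.1% of all genes. DESeq2 called 701 genes, among them UNG higher (1 of 42, 2.38%, against 0.957% of all genes with an adjusted p) and RRM2 lower (1 of 42, 2.38%, against 5.09%). ECM1, the target of the hairpin, did not pass in edgeR either. Its log2 fold change was -1.58 ± 0.32 (SE), with an adjusted p of 0.0973 in edgeR and 0.0254 in DESeq2. Without shNC replicate 2 its adjusted p in edgeR was 0.000192.

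**Figure D1:**
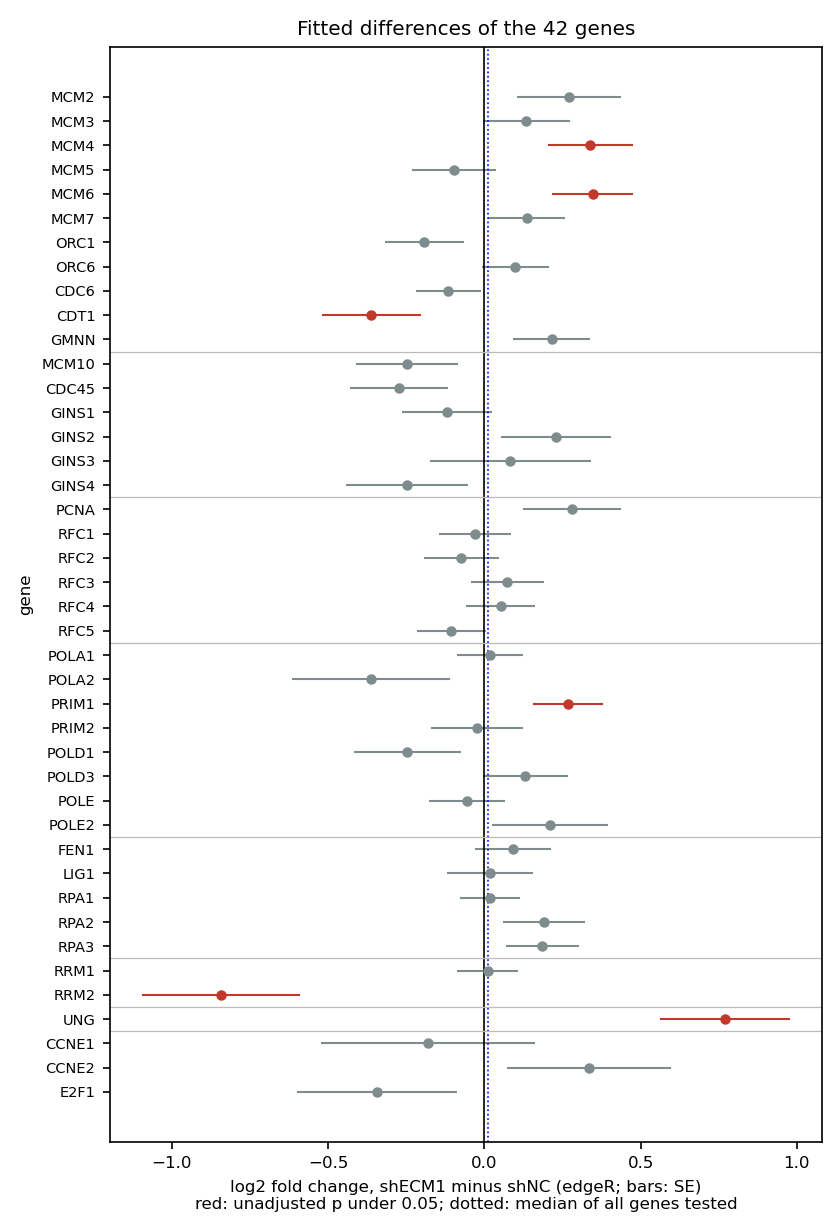
Fitted log2 fold change (x axis, shECM1 minus shNC, edgeR; bars are standard errors, 3 libraries a group) for each of the 42 genes (y axis), grouped by role. UNG at 0.77 and RRM2 at -0.84 lie at the ends, 30 of 42 genes lie within 0.25 of 0, and red marks the 6 genes at an unadjusted p under 0.05; the dotted line is the median of all genes tested.

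Read library by library, 5 of the 42 genes (11.9%) had every shECM1 library above every shNC library, against 11.2% of all genes tested. These were MCM4, MCM6, GMNN, PRIM1 and UNG. In 4 genes (9.52%), namely CDC6, GINS1, GINS4 and POLA2, every shECM1 library lay below every shNC library, against 13.2% of all genes. Neither share stood far from that of all genes. When shNC replicate 2 was left out, edgeR called 3037 genes at an adjusted p of 0.05. Of the 42 genes 2 (4.76%), UNG and MCM6, were then called higher, against 9.73% of all genes, and 3 (7.14%), RRM2, CDT1 and CDC45, were called lower, against 14.1%.

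Exons of MCM2, MCM7, GINS2, RFC4, RFC5, FEN1, RPA1, RPA3, CCNE2, POLA2, POLD1 and PRIM1 overlap those of a neighbouring gene, and PCNA, RPA2, RRM2, UNG, RFC3, RFC5 and FEN1 have annotated pseudogenes. Whether counting used strand is not known from the labels, so the values of these genes may hold reads of another gene.

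**Figure D2:**
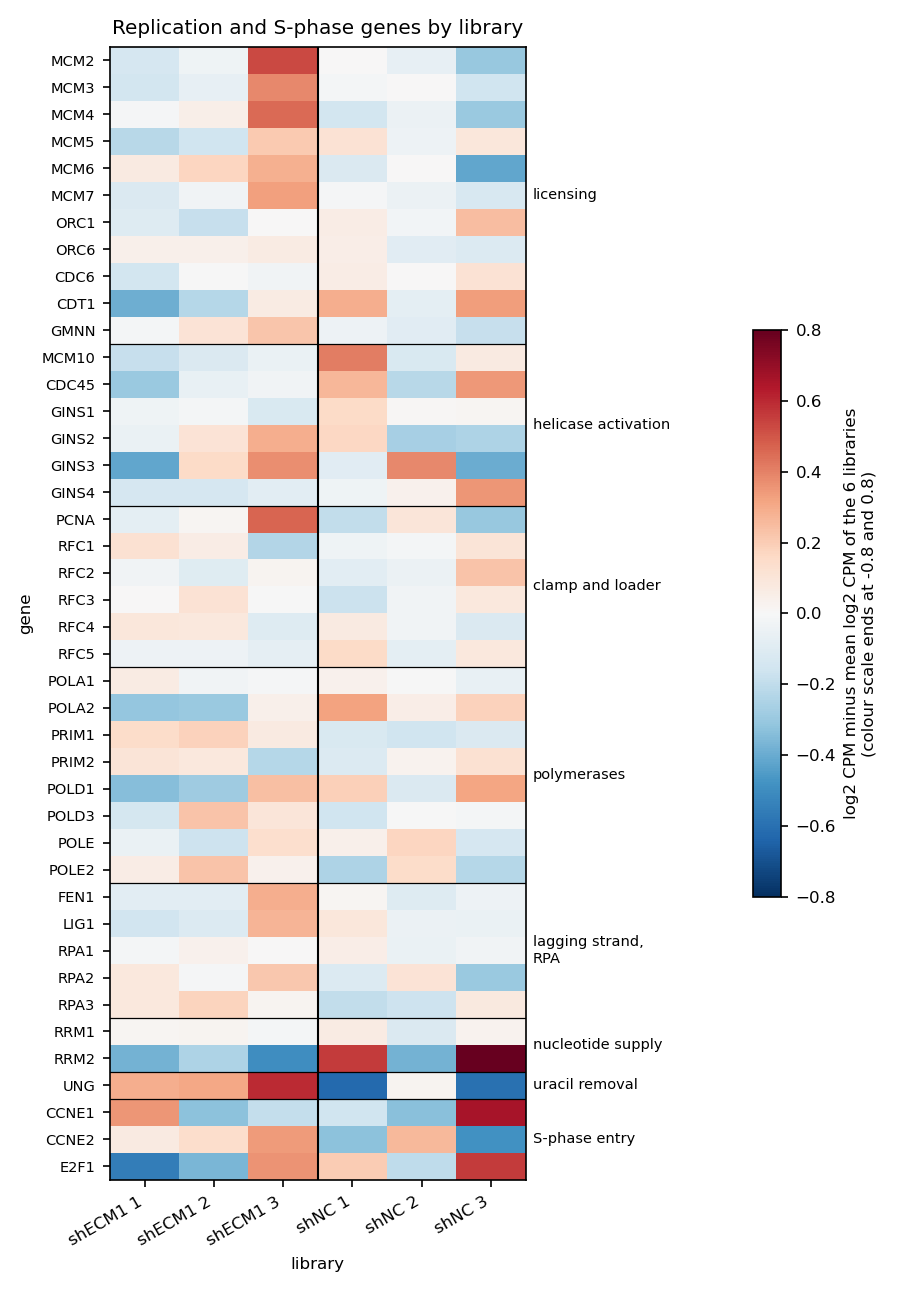
Colour gives each gene's log2 CPM in each library minus its mean over the 6 libraries (rows are the 42 genes by role, columns are the 3 shECM1 and then the 3 shNC libraries; the scale ends at -0.8 and 0.8). The RRM2 and UNG rows show shNC replicates 1 and 3 apart from the other 4 libraries, and the rows MCM2 to MCM7 are highest in shECM1 replicate 3.

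UNG (ENSG00000076248, chromosome 12, 109097574 to 109110992, plus strand, GRCh38) removes uracil from DNA as the first step of base excision repair. It was measured at 11.9, 12.1 and 14.8 CPM in shECM1 libraries, against 6.34, 9.91 and 6.44 CPM in shNC libraries. The groups did not overlap, and the nearest shNC library was again replicate 2. The means were 12.9 ± 1.61 CPM in shECM1 libraries and 7.57 ± 2.03 CPM in shNC libraries (SD, n = 3 each), a fitted 1.71-fold difference. Its log2 fold change of 0.77 ± 0.21 (SE) had a Benjamini-Hochberg adjusted p of 0.105 in the quasi-likelihood test of edgeR. DESeq2 gave the same size, 0.77, with an adjusted p of 0.0252, and without shNC replicate 2 edgeR gave 1.03 with an adjusted p of 0.00245. Over 14 other settings the log2 fold change stayed positive, between 0.66 and 1.03, and passed the threshold in 3. These values rest on 75 to 203 counts per library. UNG has nuclear and mitochondrial isoforms that begin at separate starts, and counts per gene do not separate them.

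Ribonucleotide reductase makes the deoxynucleotides for copying, and its subunits gave unlike values, though the difference between them was not tested. RRM2 (ENSG00000171848, chromosome 2, 10120698 to 10131419, plus strand), the small subunit that is made and destroyed with the cell cycle, was present at 42.6, 46.6 and 39.3 CPM in shECM1 libraries, against 81.6, 42.7 and 106.2 CPM in shNC libraries. The shECM1 libraries were alike, shNC replicates 1 and 3 were well above them, and shNC replicate 2 lay among the shECM1 libraries, so the groups overlapped. Means were 42.8 ± 3.65 CPM in shECM1 libraries and 76.8 ± 32.1 CPM in shNC libraries (SD, n = 3 each). The log2 fold change was -0.84 ± 0.25 (SE), with an adjusted p of 0.115 in edgeR's quasi-likelihood test and 0.0163 in DESeq2. Leaving out shNC replicate 2 made the edgeR log2 fold change -1.12, with an adjusted p of 0.000284, and leaving out shNC replicate 3 made it -0.53. RRM1, the large subunit, was at 165, 166 and 161 CPM in shECM1 libraries and 171, 151 and 167 CPM in shNC libraries. Its log2 fold change was 0.01 ± 0.10 (SE), and it turned to -0.03 without shNC replicate 2. RRM2 has 3 annotated pseudogenes that are not counted separately in the table, and reads may be shared with them.

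**Figure D3:**
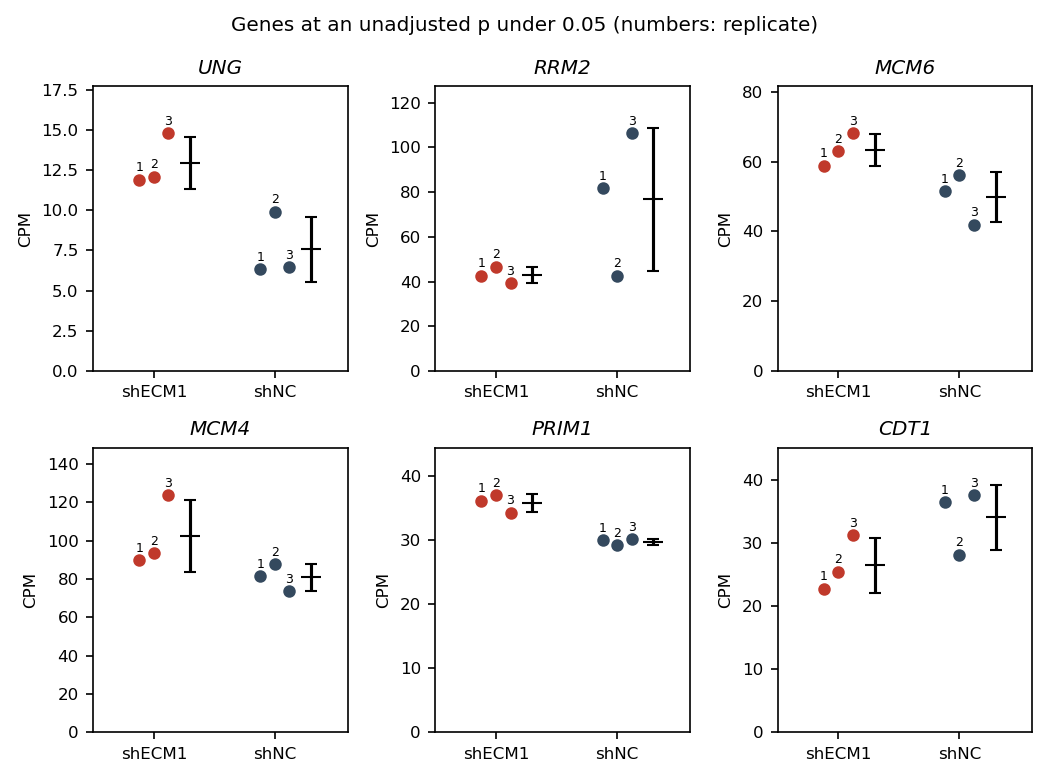
CPM (y axis, from 0) in each library (points, numbered by replicate) for the 6 genes at an unadjusted p under 0.05, with shECM1 left of shNC and the mean ± SD beside the points (n = 3 each). In UNG, MCM6, MCM4 and PRIM1 the groups do not overlap, and in RRM2 and CDT1 they do, through shNC replicate 2 at 42.7 CPM for RRM2 and 28.2 CPM for CDT1.

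Of the 11 licensing genes, 7 were on the positive and 4 on the negative side. Their median log2 fold change was 0.13, and the values ran between -0.36 and 0.35. MCM6 and MCM4, subunits of the helicase ring, had the largest positive values. MCM6 was at 58.9, 63.0 and 68.1 CPM in shECM1 libraries, against 51.5, 56.1 and 41.9 CPM in shNC libraries. Its groups did not overlap, and its log2 fold change was 0.35 ± 0.13 (SE), with an adjusted p of 0.158 in edgeR's quasi-likelihood test and 0.0241 without shNC replicate 2. MCM4 was at 89.7, 93.4 and 123.9 CPM in shECM1 libraries, against 81.6, 87.6 and 73.7 CPM in shNC libraries. These did not overlap either, with a log2 fold change of 0.34 ± 0.14 (SE) and an adjusted p of 0.182 in edgeR, and the value was 0.18 without shECM1 replicate 3. The other ring subunits overlapped between groups, with log2 fold changes of 0.27 for MCM2, 0.13 for MCM3, -0.10 for MCM5 and 0.13 for MCM7. In MCM2 the highest library was shECM1 replicate 3, at 125 CPM, beside 79.1 and 84.8 CPM in the other shECM1 libraries and 87.0, 83.0 and 70.1 CPM in shNC libraries.

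The loaders and the inhibitor of licensing had values of both signs. CDT1, which brings the ring to origins, was at 22.7, 25.4 and 31.2 CPM in shECM1 libraries, against 36.5, 28.2 and 37.6 CPM in shNC libraries. The groups overlapped because shECM1 replicate 3 was above shNC replicate 2, and the log2 fold change was -0.36 ± 0.16 (SE), with an adjusted p of 0.204 in edgeR and 0.0339 without shNC replicate 2. GMNN, or geminin, which binds CDT1 and blocks relicensing, was at 27.5, 29.97 and 32.5 CPM in shECM1 libraries, against 27.1, 26.1 and 24.5 CPM in shNC libraries. That is a log2 fold change of 0.21 ± 0.12 (SE), opposite in sign to CDT1 but with an adjusted p of 0.317 in edgeR. CDC6, the loading ATPase, was at 56.6, 62.5 and 61.2 CPM in shECM1 libraries and 65.1, 62.8 and 67.7 CPM in shNC libraries, close to each other without overlap. ORC1 and ORC6, subunits of the origin recognition complex, had log2 fold changes of -0.19 and 0.10, with overlapping groups.

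Among the genes of helicase activation 4 of 6 were on the negative side, with a median of -0.18. CDC45, which joins the ring to form the active helicase, was at 30.6, 36.0 and 36.9 CPM in shECM1 libraries, against 45.3, 32.2 and 47.9 CPM in shNC libraries. Of the shNC libraries, replicate 2 lay among the shECM1 libraries, and the log2 fold change was -0.27 ± 0.16 (SE), with an adjusted p of 0.319 in edgeR and, at -0.42, of 0.0294 without shNC replicate 2. MCM10, which helps to fire the assembled helicase, was at 13.9, 14.6 and 15.2 CPM in shECM1 libraries and 21.0, 14.5 and 16.6 CPM in shNC libraries, with a log2 fold change of -0.25 ± 0.16 (SE) that was -0.09 without shNC replicate 1, the highest library. The GINS subunits had values of both signs. GINS1 and GINS4 had log2 fold changes of -0.12 and -0.25, whereas GINS2 and GINS3 had 0.23 and 0.08 with overlapping groups, and GINS3 changed sign without shECM1 replicate 3 or shNC replicate 3.

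PCNA, the sliding clamp, was at 75.6, 80.7 and 110.1 CPM in shECM1 libraries, against 69.7, 85.1 and 64.6 CPM in shNC libraries. The groups overlapped at shNC replicate 2, and the log2 fold change was 0.28 ± 0.16 (SE), with an adjusted p of 0.307 in edgeR. Without shECM1 replicate 3 it was 0.10, and without shNC replicate 2 it was 0.42, with an adjusted p of 0.0618 in edgeR. The clamp loader subunits RFC1 to RFC5, which open and close the clamp, were flat, with log2 fold changes between -0.11 and 0.07. RFC5 had the largest of them in size and was at 49.5, 49.6 and 48.6 CPM in shECM1 libraries and 56.8, 48.3 and 54.0 CPM in shNC libraries.

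The 8 polymerase and primase genes split evenly, 4 positive and 4 negative, over a range between -0.36 and 0.27. PRIM1, the catalytic primase subunit that lays RNA primers, was at 36.1, 37.0 and 34.2 CPM in shECM1 libraries, against 29.9, 29.2 and 30.1 CPM in shNC libraries. The libraries of each group were close together and the groups did not overlap. The log2 fold change was 0.27 ± 0.11 (SE), with an adjusted p of 0.191 in edgeR. Exons of PRIM1 overlap those of NACA and of another annotated gene on the same strand and of HSD17B6 on the opposite strand, so its values are uncertain. Its partner PRIM2 had a log2 fold change of -0.02, which changed sign when libraries were scaled by total counts alone.

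POLA2, the accessory subunit of polymerase alpha, was at 2.18, 2.20 and 2.78 CPM in shECM1 libraries and 3.38, 2.80 and 3.08 CPM in shNC libraries. It rests on 22 to 43 counts per library, and its log2 fold change of -0.36 ± 0.25 (SE) had an adjusted p of 0.404 in edgeR. POLD1, the catalytic subunit of polymerase delta, was at 39.3, 40.9 and 58.8 CPM in shECM1 libraries and 56.9, 46.0 and 62.2 CPM in shNC libraries. Its shECM1 replicate 3 stood with the controls, and the log2 fold change was -0.25 ± 0.17 (SE), or -0.45 without that library. POLE and POLA1, catalytic subunits of polymerases epsilon and alpha, had log2 fold changes of -0.06 and 0.02, and POLD3 and POLE2, accessory subunits, had 0.13 and 0.21.

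All 5 genes of lagging-strand joining and single-strand binding had positive log2 fold changes, all of them under 0.25 in size and all with overlapping groups. RPA2, a subunit of the single-strand binding complex, was at 48.0, 45.0 and 52.6 CPM in shECM1 libraries, against 41.96, 48.8 and 36.9 CPM in shNC libraries, for a log2 fold change of 0.19 ± 0.13 (SE). RPA3, the smallest subunit, was at 58.1, 62.1 and 55.8 CPM in shECM1 libraries, against 47.9, 49.0 and 57.9 CPM in shNC libraries, for 0.18 ± 0.12 (SE). RPA1, the main DNA-binding subunit, was at 0.02. FEN1, which trims Okazaki fragment flaps, was at 0.09, and LIG1, which seals them, at 0.02, and both turned negative without shECM1 replicate 3, to -0.04 and -0.13. LIG1 also turned negative without shNC replicate 3.

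The 3 genes of S-phase entry had 23 to 246 counts per library, and their libraries varied widely. E2F1, a transcription factor of the G1/S genes, was at 8.14, 9.29 and 15.4 CPM in shECM1 libraries, against 13.8, 10.4 and 17.6 CPM in shNC libraries. Its log2 fold change was -0.34 ± 0.26 (SE), with an adjusted p of 0.434 in edgeR, and it moved between -0.67 without shECM1 replicate 3 and -0.14 without shNC replicate 3. CCNE2, a cyclin E that activates CDK2 at S-phase entry, was at 3.47, 3.63 and 4.17 CPM in shECM1 libraries, against 2.62, 3.95 and 2.36 CPM in shNC libraries, a log2 fold change of 0.33 ± 0.26 (SE). CCNE1, the other cyclin E, had a log2 fold change of -0.18 ± 0.34 (SE). Neither passed the test, and without shNC replicate 3 both were positive, at 0.20 for CCNE1 and 0.19 for CCNE2. When any other single library was left out, CCNE1 stayed negative and CCNE2 positive, as at -0.37 and 0.61 without shNC replicate 2. As the sign of CCNE1 depended on shNC replicate 3, no difference in sign between the cyclins can be read.

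The genes that make up the MCM ring peaked in the same library. In shECM1 replicate 3, 15 of the 42 genes (35.7%) were at their highest of the 6 libraries, against 23.4% of all genes tested. These were the 6 ring genes MCM2 to MCM7 with ORC6, GMNN, GINS2, PCNA, FEN1, LIG1, RPA2, UNG and CCNE2. The summed level of MCM2 to MCM7 was 619, 656 and 855 CPM in shECM1 libraries, against 644, 646 and 583 CPM in shNC libraries. The means of this sum, 709 ± 129 CPM in shECM1 libraries and 626 ± 38.1 CPM in shNC libraries (SD, n = 3 each), differed by less than the SD of the shECM1 group. With all libraries 5 of the 6 ring genes had a positive log2 fold change, and without shECM1 replicate 3 there were 3, namely MCM2, MCM4 and MCM6. The same library had the lowest summed level of the G2 and M phase list, at 2577 CPM beside 2925 and 2853 CPM in the other shECM1 libraries and 3300, 2718 and 3576 CPM in shNC libraries. Whether the libraries differ in the share of cells in S phase was not tested.

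**Figure D4:**
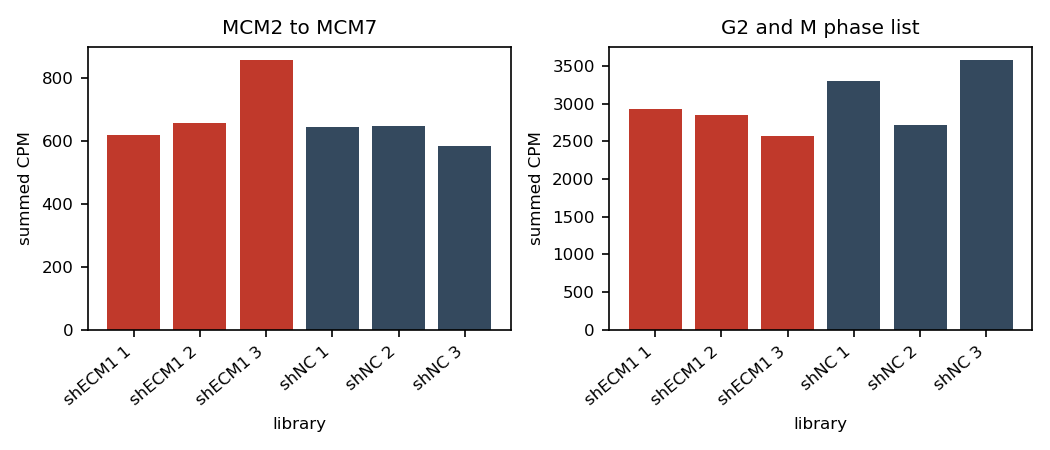
Summed CPM (y axes, from 0) of MCM2 to MCM7 (left) and of the G2 and M phase list (right) in each library, shECM1 in red and shNC in dark blue. shECM1 replicate 3 has the highest MCM sum, 855 CPM, and the lowest G2 and M phase sum, 2577 CPM.

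The 35 genes with a promoter window were set side by side by E2F-type match, and the difference was not tested. The 7 genes without a window were left out. Among these, MCM4, MCM5, RPA2 and CCNE2 were also highest in shECM1 replicate 3. Of the 19 genes with a match, 13 were on the positive and 6 on the negative side. Their median log2 fold change was 0.08, and 9 of them were highest in shECM1 replicate 3. Of the 16 genes with a window but no match, 6 were positive and 10 negative, with a median of -0.05, and 2 were highest in that library. Over all genes tested 51.4% were positive and 23.4% were highest in that library. UNG, MCM6 and CDT1, whose matches are printed above, were the 3 genes with a match at an unadjusted p under 0.05, and they did not share a direction. RRM2 and PRIM1 were the 2 without one. These counts, 3 of 19 and 2 of 16, stood beside 22.5% of all genes tested at an unadjusted p under 0.05. In 27 of the 42 genes (64.3%) shNC replicate 2 lay nearer to the mean of the shECM1 libraries than to that of the other shNC libraries, against 68.1% of all genes tested, so the control library that stood apart did so in this set about as often as elsewhere.

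Around the set, the other replication genes, which include the remaining origin recognition, checkpoint and chromatin assembly genes, had a median log2 fold change of 0.09 over 39 genes, and edgeR called 0. At an unadjusted p under 0.05, 5 (12.8%) were higher, against 8.31% of all genes, and 2 (5.13%) lower, against 14.2%. RNASEH2B, a subunit of the enzyme that cuts RNA out of DNA, was at 43.0, 48.8 and 44.9 CPM in shECM1 libraries, against 33.1, 37.4 and 27.1 CPM in shNC libraries, and had an adjusted p of 0.108 in edgeR and 0.0373 in DESeq2. POLD4, the smallest subunit of polymerase delta, had the smallest p on the lower side, with a log2 fold change of -0.59 ± 0.20 (SE), and shares exons with another gene on its strand.

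Nucleotide supply beyond ribonucleotide reductase stood on the positive side in 16 of 21 genes, with a median of 0.22. At an unadjusted p under 0.05, 9 (42.9%) were higher, against 8.31% of all genes, and 0 lower, against 14.2%, and edgeR called 0. The 9, named after their values were seen, were the pyrimidine genes CAD, UMPS, DHODH and CTPS1, the purine genes PPAT, PAICS, ATIC and ADSL, and NME1. NME1, a nucleoside diphosphate kinase, was at 28.2, 31.3 and 34.0 CPM in shECM1 libraries, against 18.1, 25.4 and 16.1 CPM in shNC libraries, with an adjusted p of 0.105 in edgeR and 0.0189 in DESeq2, and its exons overlap a read-through gene with NME2. TK1, the S-phase thymidine kinase, was at 67.2, 67.7 and 81.9 CPM in shECM1 libraries, against 111.6, 66.0 and 105.4 CPM in shNC libraries. Like RRM2, it had shNC replicate 2 beside the shECM1 libraries, and its log2 fold change was -0.38 ± 0.18 (SE), with an adjusted p of 0.229 in edgeR and 0.0044 without that library.

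In the base excision repair list, the pathway UNG opens, 14 of 21 genes were positive, with a median log2 fold change of 0.05, and edgeR called 0. At an unadjusted p under 0.05, 3 (14.3%) were higher, against 8.31% of all genes, and 1 (4.76%) lower, against 14.2%. TDG, another uracil and thymine glycosylase, was at 51.3, 47.0 and 43.4 CPM in shECM1 libraries, against 32.7, 42.8 and 31.6 CPM in shNC libraries, a log2 fold change of 0.40 ± 0.14 (SE) with an adjusted p of 0.141 in edgeR. APEX2, an endonuclease for abasic sites, had the smallest p on the lower side, at -0.32 ± 0.13 (SE).

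The E2F and restriction point list had 27 of 28 genes tested, 12 positive and 15 negative, and a median of -0.09. At an unadjusted p under 0.05, 2 (7.41%) were higher, against 8.31% of all genes, and 9 (33.3%) lower, against 14.2%, and edgeR called 0. CDKN2D, an inhibitor of CDK4 and CDK6, was at 8.34, 8.82 and 6.73 CPM in shECM1 libraries, against 21.3, 10.8 and 35.6 CPM in shNC libraries. That was a log2 fold change of -1.50 ± 0.34 (SE), with an adjusted p of 0.0973 in edgeR and 0.000751 in DESeq2. CDKN1A, CDKN1B and CDKN1C, other CDK inhibitors named after their values were seen, had log2 fold changes of -1.87, -0.44 and -0.81. Their groups overlapped, and their adjusted p-values in edgeR were 0.0973, 0.180 and 0.140. Without shNC replicate 2 their log2 fold changes were -2.28, -0.59 and -1.09. The edgeR adjusted p-values were then 0.000341, 0.00958 and 0.00146. CDKN1A rests on 28 to 267 counts per library. The 9 lower genes also held CDK2, CDK6, CCND3, E2F2 and E2F7, with log2 fold changes of -0.39, -0.40, -0.52, -0.79 and -0.32. In CDK2, CDK6 and E2F7 the groups did not overlap. CDK4 was the higher gene beside SKP2, at 0.44 ± 0.14 (SE). These genes too were named after their values were seen. SKP2, which targets CDKN1B for destruction, was at 33.2, 33.7 and 34.2 CPM in shECM1 libraries, against 23.4, 29.8 and 20.7 CPM in shNC libraries, a log2 fold change of 0.45 ± 0.15 (SE).

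The G2 and M phase list was mostly on the negative side, with 15 of 19 tested genes negative and a median of -0.18. At an unadjusted p under 0.05, 0 were higher, against 8.31% of all genes, and 4 (21.1%) lower, against 14.2%, and edgeR called 0. AURKB, a mitotic kinase, was at 71.1, 74.7 and 76.2 CPM in shECM1 libraries, against 113.0, 73.0 and 140.0 CPM in shNC libraries, with an adjusted p of 0.135 in edgeR and 0.000897 without shNC replicate 2. CENPF, a kinetochore protein, had the smallest p on the higher side, with a log2 fold change of 0.16 ± 0.11 (SE). RRM2, TK1 and AURKB, set together after their values were seen, shared a layout in which shNC replicates 1 and 3 were above the remaining 4 libraries. A like placing of shNC replicate 2 was common elsewhere. It lay nearer to the shECM1 mean than to that of the other shNC libraries in 68.1% of all genes tested.

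**Figure D5:**
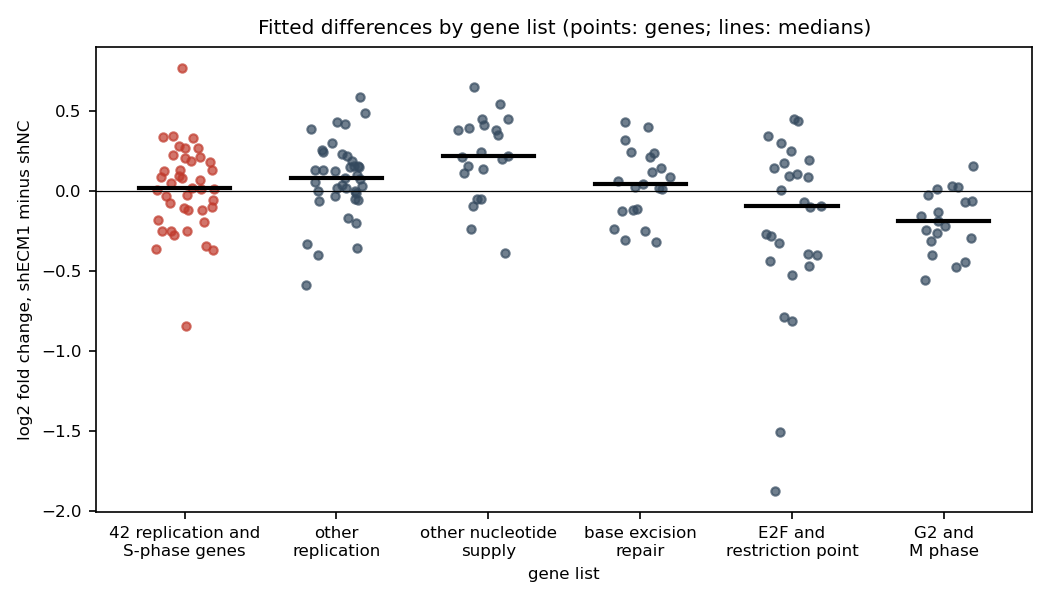
Fitted log2 fold change (y axis, shECM1 minus shNC) of each gene (points) in the 42 replication and S-phase genes and in 5 other lists (x axis), with the median as a line. The medians are 0.02, then 0.09, 0.22, 0.05, -0.09 and -0.18 from left to right.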

How the data were processed

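The authors deposited raw counts, 1 whole number per gene and library for 6 libraries, and replicates were not pooled. Tools named in the submitters' processing notes are STAR, featureCounts, fastp, Seurat and DESeq2, with GRCh38 (hg38). Settings, versions and strand handling were not given in the sources used here. Of the gene IDs, 20462 matched a symbol and 14 did not.

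Groups came from the sample titles. Genes were filtered with filterByExpr, scaled by TMM and tested with edgeR 4.0.16 (quasi-likelihood test, 3 shECM1 against 3 shNC libraries, Benjamini-Hochberg over all genes tested, threshold 0.05) in R 4.3.3, and the procedure was tested on simulated data. In the simulation all genes shared the same spread setting and no control library stood beside the shECM1 libraries. How the procedure behaves with such a library was therefore not tested. CPM are TMM-scaled. DESeq2 1.42.0 and limma-voom 3.58.1 were alternatives, as were other scalings, filters and leaving out each library. Coordinates are from GENCODE release 29. Counts are not corrected for gene length, so levels of different genes are not compared.

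The genes, lists and tests were chosen with earlier results of these data known. In each role, the 2 genes of smallest p and the largest difference were given in full, with UNG, and in each other list the smallest p in each direction. GMNN, CDC6, MCM2 and others were added after their values were seen. In no pair of libraries did counts agree within sampling noise.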

Additional observations from a re-analysis of the deposited data

How the results depend on the processing

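UNG and RRM2 kept their direction in all 14 alternatives, and whether they passed the threshold depended on the filter, the tool and 1 control library. Without a count filter edgeR called 505 of 16386 genes tested and 2 of the 42 in the set, with UNG at 0.77. DESeq2 called 701 of the 11600 genes with an adjusted p and 2 of the 42, with UNG at 0.77. Other scalings, limma-voom and a minimum count of 50 in 3 libraries called 0 genes, and that minimum left 40 of the 42 genes, POLA2 not among them. Leaving out each library in turn gave 0 to 3037 called genes and 0 to 5 called in the set. In the set 3 to 12 genes (7.14% to 28.6%) had an unadjusted p under 0.05, against 11.3% to 37.3% of all genes. The set's share was the lower each time. Groups did not overlap in 9 to 19 of its genes, and the UNG log2 fold change ran between 0.66 and 1.03. All calls in that series came without shNC replicate 2. With 2 libraries in a group fewer values have to be apart, and the set's share of genes that did not overlap, 21.4% to 45.2%, stood beside 28% to 54% of all genes; it was 21.4% and 24.4% with all libraries. The log2 fold change of RRM1 ran between -0.029 and 0.051 in that series, turning to -0.029 without shNC replicate 2, and the cause was not tested. With the replicate block UNG was at 0.79 and 0 genes were called. Same-numbered deviations correlated at -0.07, -0.05 and -0.18, which gives no sign that the replicate numbers pair the samples. Deviations from means of so few libraries cannot exclude pairing. POLA2 rests on 22 to 43 and UNG on 75 to 203 counts per library. Counts cover counting error only, and genes that share exons or have pseudogenes may hold reads of another gene.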
